A study of Mus musculus with 6 samples.

Results

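The 36 genes described here cover glucose uptake, glycolysis, lactate handling, the kinases that hold back pyruvate dehydrogenase, and the response to low oxygen. They were taken by name from a table of 31245 mouse genes, and all 36 were found there. The cultures were primary cortical neuronal cultures of Mus musculus, prepared from postnatal day 1 pups and kept for 12 to 13 days in vitro in Neurobasal A with GlutaMax and B27. Of 6 cultures, 3 received NGPF2 at 1.5 ng/ml, an added factor whose abbreviation the labels do not expand, and 3 received vehicle (PBS). RNA was taken after 2 h. The sources used here give neither the pups' strain and genotype nor their number per culture. The series' design text counts the cultures as 3 pairs of NGPF2 and vehicle from 3 independent experiments.

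Glycolysis splits glucose into pyruvate and yields ATP without oxygen. Pyruvate then enters mitochondria through the pyruvate dehydrogenase complex or is turned into lactate. Several steps have isozymes that differ between brain cells. Slc2a3, Eno2 and Ldhb are known as neuronal forms, and Aldoc is known as the astrocyte aldolase. The transcription factor HIF-1 raises many of these genes when oxygen is low, since the oxygen-dependent hydroxylases of the Egln family then no longer mark its alpha subunit for degradation. HIF binds DNA at a short core motif, ACGTG or GCGTG.

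The 250 bases before the RefSeq start of 4 of the genes follow (build GRCm38.p6, 5′ to 3′ on the gene's strand). Ldha and Ldhb encode the paired subunits of lactate dehydrogenase, Aldoc is the member with the smallest p in replicates 2 and 3, and Ankrd37 is a hypoxia target. Capitals mark each match of ACGTG or GCGTG on either strand, with CACGTG, which reads the same on both strands, counted once.
Ldha, chr7:46845554-46845803, plus strand: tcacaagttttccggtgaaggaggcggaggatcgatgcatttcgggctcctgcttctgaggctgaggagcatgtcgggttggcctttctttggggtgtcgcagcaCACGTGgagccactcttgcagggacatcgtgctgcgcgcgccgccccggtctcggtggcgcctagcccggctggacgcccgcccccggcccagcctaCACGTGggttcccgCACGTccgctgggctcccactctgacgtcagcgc
Ldhb, chr6:142507958-142508207, minus strand: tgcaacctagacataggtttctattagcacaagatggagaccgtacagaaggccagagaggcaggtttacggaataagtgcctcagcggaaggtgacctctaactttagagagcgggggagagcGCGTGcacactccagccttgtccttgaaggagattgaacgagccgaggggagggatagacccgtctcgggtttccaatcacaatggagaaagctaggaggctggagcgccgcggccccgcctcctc
Aldoc, chr11:78322823-78323072, plus strand: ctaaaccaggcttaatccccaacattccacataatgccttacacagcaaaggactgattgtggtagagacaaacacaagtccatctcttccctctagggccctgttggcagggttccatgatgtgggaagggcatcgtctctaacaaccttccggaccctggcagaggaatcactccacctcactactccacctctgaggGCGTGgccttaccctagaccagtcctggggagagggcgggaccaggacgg
Ankrd37, chr8:45999851-46000100, minus strand: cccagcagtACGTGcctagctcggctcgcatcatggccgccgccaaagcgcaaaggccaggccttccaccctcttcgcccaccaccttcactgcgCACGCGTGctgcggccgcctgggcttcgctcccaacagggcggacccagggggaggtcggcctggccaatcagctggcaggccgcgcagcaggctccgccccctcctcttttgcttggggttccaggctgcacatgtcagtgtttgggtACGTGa
The windows hold 3 sites for Ldha, 1 for Ldhb, 1 for Aldoc and 4 for Ankrd37, and the Ldha and Aldoc windows each belong to 1 of 2 listed starts. CACGCGTG in the Ankrd37 window holds a match on each strand, and both were counted. The RefSeq starts of Ldha, Ankrd37 and Aldoc lie inside the gene as annotated by GENCODE, 4329, 5857 and 105 bases from its 5′ end. The Aldoc site, 46 bases before the RefSeq start, thus lies within the annotated gene. RefSeq promoters were matched for 34 of the 36 genes, Slc2a3 and Ndrg1 being the exceptions, and 31 of the 34 held the motif before at least 1 start. Among 11692 matched genes of the tested set the share was 59.9%. Of the genes described below, the motif was in 8 of the 10 matched members that rose, in 4 of the 4 that fell, and in 19 of the 20 that did not pass the test. It was not found in the windows of Gpi1, Tpi1 and Eno2. A match is a string of letters and was not tested as a binding site, and genes with several starts had more windows in which to match.

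The libraries held 17478070 to 45193691 counts in NGPF2 cultures and 24311967 to 44788235 in vehicle cultures. Values are normalized counts, that is counts divided by the library's size factor, and differences are on the scale of log2(normalized count + 1), which understates the change of genes with low counts. All 36 genes passed the filter of a mean normalized count of at least 10. Titles of replicates 2 and 3 carry library names with a common stem, those of replicate 1 do not, and replicate 1 stood apart. All 12 markers of neurons, the labelled cell type, were abundant enough to test, and so were 13 of 14 markers of astrocytes. In NGPF2 and vehicle replicate 1, the 13 astrocyte markers differed by a median of 0.02 on the log2 scale, with a range of -0.36 to 1.17 (Slc1a2). In pairs 2 and 3 they differed by a median of -2.80 and -2.86. The test over all 3 pairs is therefore given first, and the values that follow for single genes are those of replicates 2 and 3 unless the 3 pairs are named.

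Over the 3 pairs, none of the 36 genes passed the test (limma with the replicate number as a block, Benjamini-Hochberg adjustment over 16653 genes, threshold 0.05). Their adjusted p-values ran from 0.379 upwards, and the median log2 difference was 0.01. None of the 16653 genes passed either (0.0%), although 2166 had an unadjusted p under 0.05. With limma-voom on the recovered counts, 0 genes passed and 1315 had an unadjusted p under 0.05. A p that misses the threshold does not show that the values did not differ. The 3-pair log2 differences with the largest size among the members were -2.13 for Pdk4 (SE 0.84), -2.08 for Aldoc (SE 0.64), -1.30 for Ndrg1 (SE 0.45) and -0.96 for Hk2 (SE 0.33), each with an adjusted p of 0.379. Vegfa differed by -0.43 (SE 0.15) and Pdk1 by -0.28 (SE 0.11). On the positive side Ldhb differed by 0.42 (SE 0.18), Hk1 by 0.32 (SE 0.13), Tpi1 and Ldha by 0.28 (SE 0.10 and 0.13), and Higd1a by 0.26 (SE 0.10). Pfkp, Aldoa, Gpi1, Pfkm and Gapdh differed by 0.21, 0.20, 0.19, 0.19 and 0.14, with an SE of 0.10 to 0.13.

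In replicates 2 and 3 alone, 16 of the 36 genes passed the limma test, which was fitted here without the pairing as a block. Of these, 11 rose and 5 fell with NGPF2. Over all genes tested, 21.1% passed, 9.77% higher and 11.3% lower. The genes that rose were the glucose transporter Slc2a3, 7 enzymes of glycolysis (Hk1, Gpi1, Pfkp, Pfkm, Aldoa, Tpi1 and Gapdh), both lactate dehydrogenase subunits and the mitochondrial protein Higd1a. The genes that fell were Aldoc, the pyruvate dehydrogenase kinases Pdk1 and Pdk4, and the hypoxia targets Vegfa and Ndrg1. The rises were small, from 1.21-fold to 1.60-fold, while the falls ran from 1.28-fold in Pdk1 to 8.71-fold in Aldoc and, at low counts, 10.4-fold in Pdk4. The median over the 36 genes was 0.10 on the log2 scale, against -0.00 over all genes tested. Members are abundant genes, and abundance moves the background: 27 of the 36 had a mean of at least 1000, with 11 higher and 3 lower, and among all 5813 genes with such a mean 28.0% passed, 19.6% higher and 8.39% lower.

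These calls depended on scaling and on single libraries. Scaled to library totals, which shifted the median of all genes to -0.13, 4 members rose (Slc2a3, Hk1, Ldha and Ldhb), and after quantile scaling 3 did (Hk1, Ldha and Ldhb). The 11 kept a positive difference under both scalings. With the replicate number as a block, 6 members rose (Slc2a3, Hk1, Aldoa, Tpi1, Ldha and Ldhb). Without vehicle replicate 2 or without vehicle replicate 3, 0 genes of the whole table passed in limma, with 3610 and 3623 genes at an unadjusted p under 0.05. Without NGPF2 replicate 2, 6 members rose. The 5 members that fell passed under both scalings, where Eno1 was also lower, as was Pdk2 under library totals, while Pdk1 missed the threshold with the block (adjusted p = 0.0589). Aldoc and Ndrg1 passed in each of the 9 settings that used all 4 libraries, and Ldhb passed in 8.

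**Figure D1:**
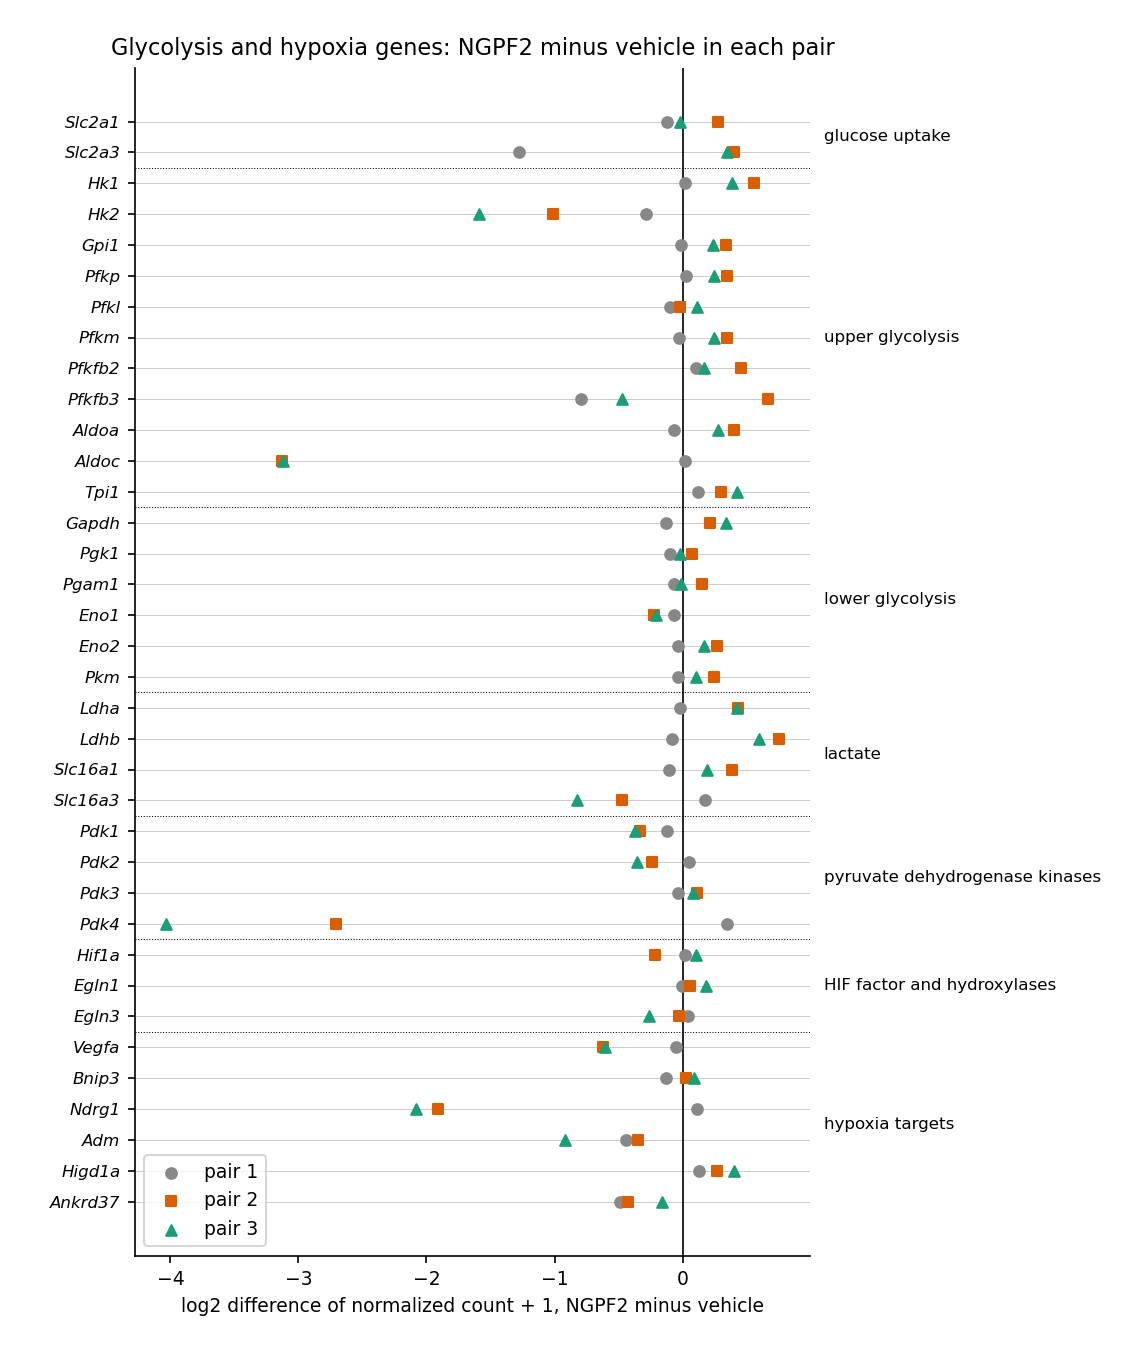
Difference of each gene in each pair, as NGPF2 minus vehicle of log2(normalized count + 1), with 1 marker per pair and the genes grouped by role. Pair 1 lies near 0 for most genes, with Slc2a3 at -1.28, while pairs 2 and 3 lie far to the left for Aldoc, Pdk4, Ndrg1 and Hk2.

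Glucose enters the cell through facilitative transporters, of which Slc2a3 (GLUT3) is known as the main neuronal form and Slc2a1 (GLUT1) as the form of endothelium and glia. Slc2a3 (chr6:122727809-122801640, minus strand, mm10) had 3416, 9673 and 9284 normalized counts in NGPF2 replicates 1, 2 and 3, against 8268, 7328 and 7316 in vehicle replicates 1, 2 and 3. NGPF2 replicate 1 was below every other library, while NGPF2 replicates 2 and 3 were above all vehicle libraries. It rose in replicates 2 and 3 (log2 difference 0.37, SE 0.06, adjusted p = 0.0167, limma), whereas over the 3 pairs the difference was -0.18 (SE 0.34, adjusted p = 0.811). The change in replicates 2 and 3 exceeded that in replicate 1 by 1.65 (SE 0.11, adjusted p = 0.0089). Slc2a1 had 860, 1289 and 1120 normalized counts with NGPF2, against 938, 1066 and 1139 with vehicle, and the groups overlapped (log2 difference 0.12, SE 0.10, adjusted p = 0.438). Per kilobase of annotated exon, Slc2a1 made up 34.2% of the 2 transporters' level in NGPF2 replicate 1 and between 19.0% and 24.3% in the other 5 libraries. The length used joins all annotated exons of a gene, so that such shares between genes depend on the annotation.

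**Figure D2:**
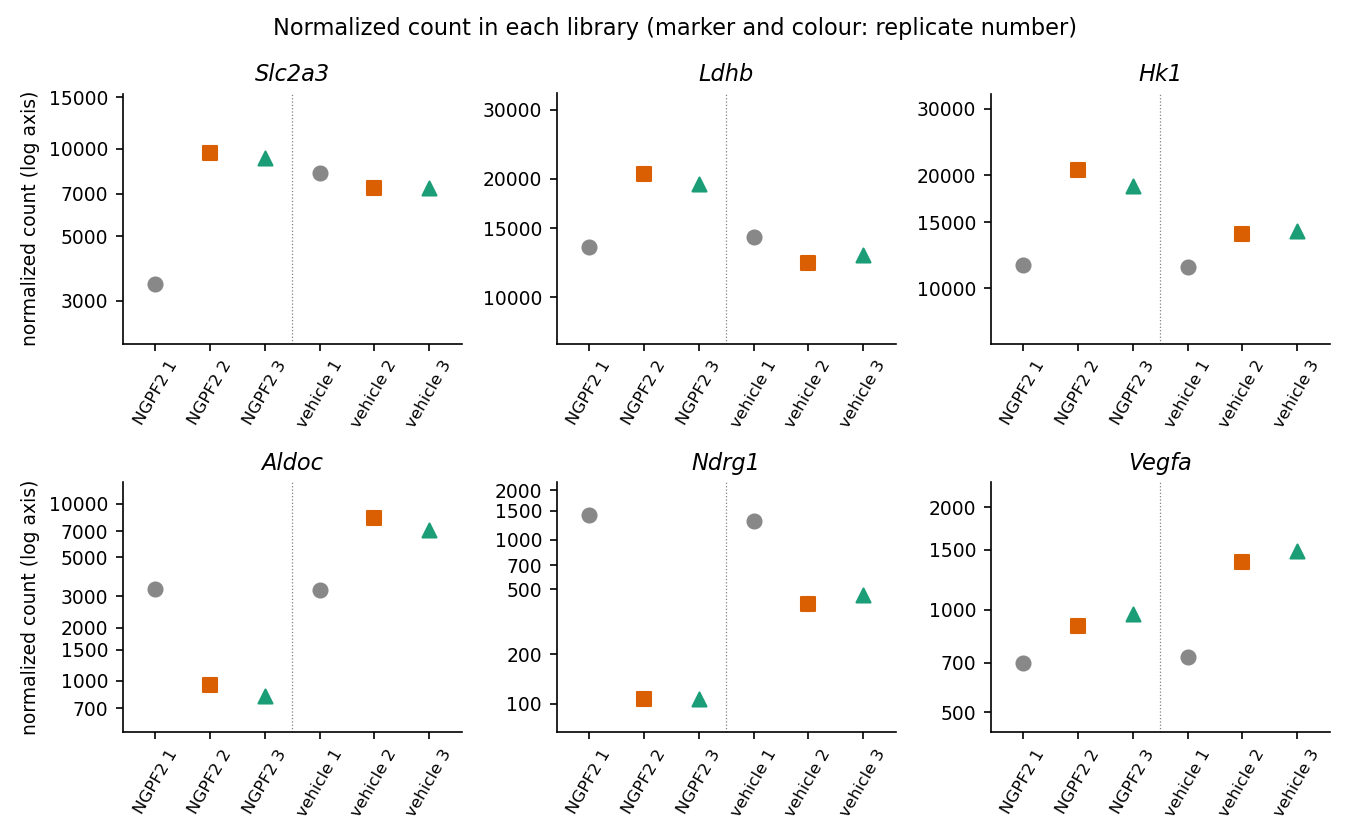
Normalized counts of 6 genes in each library, on log axes with a separate range per panel, with the NGPF2 libraries left of the dotted line and the vehicle libraries right of it. Replicates 2 and 3 separate by treatment in all 6 panels, while NGPF2 1 and vehicle 1 lie close together except for Slc2a3.

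Upper glycolysis primes glucose with phosphate and cleaves it into triose phosphates. Of its 11 members 6 rose and 1 fell in replicates 2 and 3, against 9.77% higher and 11.3% lower among all genes tested. Among genes with a mean of at least 1000 the shares were 19.6% and 8.39%. Hexokinase takes the first step. Hk1, the main hexokinase of brain, had 11578, 20591 and 18667 normalized counts with NGPF2, against 11424, 13990 and 14253 with vehicle. The 2 libraries of replicate 1 were the lowest and nearly equal, and NGPF2 replicates 2 and 3 were the highest (log2 difference 0.47, SE 0.07, adjusted p = 0.0142). Hk2, an inducible form, was far lower, with 130, 23.9 and 28.7 normalized counts with NGPF2, against 159, 49.1 and 88.3 with vehicle. Its 2 lowest libraries were NGPF2 replicates 2 and 3, but the difference did not pass the test (log2 difference -1.30, SE 0.37, adjusted p = 0.068). With the replicate number as a block it passed as lower (adjusted p = 0.0498).

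Gpi1, the isomerase that turns glucose 6-phosphate into fructose 6-phosphate, had 17052, 24460 and 22438 normalized counts with NGPF2, against 17177, 19379 and 19046 with vehicle (log2 difference 0.29, SE 0.07, adjusted p = 0.0463). Phosphofructokinase, the committed step, has a muscle, a platelet and a liver form, and all were measured. Pfkm had 10940, 16126 and 14880 normalized counts with NGPF2, against 11143, 12662 and 12556 with vehicle (log2 difference 0.30, SE 0.07, adjusted p = 0.0394). Pfkp had 6329, 9551 and 9067 normalized counts with NGPF2, against 6225, 7499 and 7657 with vehicle (log2 difference 0.30, SE 0.06, adjusted p = 0.0332). Both forms rose by about the same amount in replicates 2 and 3. Pfkl had 1813, 2341 and 2274 normalized counts with NGPF2, against 1940, 2369 and 2106 with vehicle, with groups that overlapped (log2 difference 0.05, SE 0.09, adjusted p = 0.732). Per kilobase, Pfkm held between 80.6% and 82.0% of the 3 forms' level in every library. Pfkl held 6.76%, 5.95% and 6.23% with NGPF2, against 7.10%, 7.54% and 6.79% with vehicle, and these groups did not overlap. The size of these shares depends on the annotated exon lengths, 3340 bases for Pfkm, 13401 for Pfkp and 6675 for Pfkl. In normalized counts not divided by length, Pfkm and Pfkp lay much closer together.

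Pfkfb2 and Pfkfb3 make and break fructose 2,6-bisphosphate, the activator of phosphofructokinase, and neither passed. Pfkfb2 had 718, 1086 and 939 normalized counts with NGPF2, against 667, 793 and 835 with vehicle. Pfkfb3 had 693, 1664 and 861 normalized counts with NGPF2, against 1199, 1050 and 1199 with vehicle. Its NGPF2 libraries held both the highest and the lowest of the 6 values, and the pairs went in different directions, at -0.79, 0.66 and -0.48.

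Aldolase splits the hexose bisphosphate, and its isozymes moved apart. Aldoa, the general form, had 23689, 38436 and 37794 normalized counts with NGPF2, against 24885, 29155 and 31135 with vehicle. It rose in replicates 2 and 3 (log2 difference 0.34, SE 0.07, adjusted p = 0.0268). The table lists Aldoa under a pair of identifiers, and the more abundant one is given here. Aldoc (chr11:78322968-78327781, plus strand) had 3295, 950 and 820 normalized counts with NGPF2, against 3258, 8318 and 7122 with vehicle. The 2 libraries of replicate 1 were almost equal, vehicle replicates 2 and 3 were the highest, and NGPF2 replicates 2 and 3 the lowest. In replicates 2 and 3 Aldoc fell 8.71-fold (log2 difference -3.12, SE 0.12, adjusted p = 0.000757), and the change differed from that in replicate 1 by -3.14 (SE 0.20, adjusted p = 0.0089). Over the 3 pairs the difference was -2.08 (SE 0.64, adjusted p = 0.379).

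Astrocyte markers moved with Aldoc. All 13 markers of the list that could be tested fell in replicates 2 and 3, with a median log2 difference of -2.78. Their summed normalized count was 32993, 24363 and 20600 in NGPF2 replicates 1, 2 and 3, against 29596, 76396 and 70206 with vehicle. The glial filament gene Gfap had 3029, 312 and 267 normalized counts with NGPF2, against 2914, 9219 and 9265 with vehicle. The water channel gene Aqp4 had 2064, 149 and 138 with NGPF2, against 2045, 3438 and 3310 with vehicle. Gfap and Aqp4 fell the most of the 13, at -4.99 and -4.54 in replicates 2 and 3, and Slc1a2 the least, at -0.80. Slc1a2 had 6056, 12812 and 10237 normalized counts with NGPF2, against 2697, 21468 and 18606 with vehicle. Gjb6, the marker too scarce to test, was listed at 0 in both NGPF2 replicates 2 and 3, against 15.2 and 22.7 in vehicle replicates 2 and 3. Microglia markers fell as well, 9 of 11, with sums of 1856, 82.5 and 136 with NGPF2, against 1740, 727 and 621 with vehicle, and Cx3cr1, Fcer1g and Aif1 at 0 in at least 1 NGPF2 library. Neuron markers rose in 7 of 12 cases, with sums of 259213, 403322 and 386025 with NGPF2, against 265316, 303062 and 305737 with vehicle. Precursors of oligodendrocytes had 3 of 5 markers lower, oligodendrocytes 2 of 8, and fibroblasts and mural cells 4 of 9, while 0 of 3 endothelial markers passed and no red blood cell marker was abundant enough to test. Over all genes tested, 9.77% were higher and 11.3% lower in replicates 2 and 3. Among genes with a mean of at least 1000, which all neuron markers had, 19.6% were higher and 8.39% lower. In bulk RNA, fewer cells of a type and less RNA per cell cannot be told apart, and the part of these markers in the differences reported here was not tested.

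Tpi1, which interconverts the triose phosphates, had 10049, 12791 and 13807 normalized counts with NGPF2, against 9228, 10395 and 10309 with vehicle. Vehicle replicate 1 was the lowest library and NGPF2 replicates 2 and 3 were the highest (log2 difference 0.36, SE 0.07, adjusted p = 0.0237).

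Lower glycolysis, which makes ATP and pyruvate, had 1 of 6 members (16.7%) higher and none lower in replicates 2 and 3. All 6 had a mean of at least 1000, and 19.6% of all such genes were higher. Gapdh, often used as a reference gene, had 31401, 36986 and 37873 normalized counts with NGPF2, against 34314, 31922 and 29910 with vehicle. It rose in replicates 2 and 3 (log2 difference 0.28, SE 0.07, adjusted p = 0.0449), but after quantile scaling the difference was 0.03 (adjusted p = 0.788). The processed copies of Gapdh in the mouse genome make its counts uncertain. Pgk1, the first ATP-yielding kinase of the pathway, had 11043, 16862 and 16318 normalized counts with NGPF2, against 11795, 16024 and 16593 with vehicle, and both libraries of replicate 1 were the lowest. The mutase gene Pgam1 ran from 10333 to 14901 with NGPF2, against 10824 to 13394 with vehicle, and the pyruvate kinase gene Pkm from 27875 to 38218 with NGPF2, against 28637 to 33560 with vehicle. These 3 genes differed by 0.02 to 0.18 in replicates 2 and 3, and none passed. The sign of all 3 turned negative under another scaling, quantile scaling in each case.

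Enolase has a general form, Eno1, and a neuronal form, Eno2. Eno1 had 10176, 11534 and 11537 normalized counts with NGPF2, against 10643, 13432 and 13307 with vehicle, and did not pass (log2 difference -0.21, SE 0.06, adjusted p = 0.0594). It passed under quantile scaling and under scaling to library totals. Eno2 had 10717, 14631 and 13416 normalized counts with NGPF2, against 10973, 12147 and 11961 with vehicle (log2 difference 0.22, SE 0.07, adjusted p = 0.0882). Per kilobase, Eno2 made up 54.6%, 59.2% and 57.1% of enolase in NGPF2 replicates 1, 2 and 3, against 54.1%, 50.8% and 50.7% with vehicle, and the groups did not overlap.

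Lactate dehydrogenase is a tetramer of A and B subunits, and B-rich forms are known to favour the use of lactate. Ldhb (chr6:142490249-142507957, minus strand) had 13411, 20612 and 19392 normalized counts with NGPF2, against 14210, 12214 and 12796 with vehicle. It rose 1.60-fold in replicates 2 and 3 (log2 difference 0.68, SE 0.07, adjusted p = 0.00517), the largest rise among the 36 genes, and the change exceeded that in replicate 1 by 0.76 (SE 0.12, adjusted p = 0.048). Ldha had 10006, 18993 and 17755 normalized counts with NGPF2, against 10177, 14108 and 13225 with vehicle. It rose 1.34-fold in replicates 2 and 3 (log2 difference 0.43, SE 0.07, adjusted p = 0.0176), and NGPF2 and vehicle replicate 1 were the lowest libraries. As a share of both subunits per kilobase, Ldhb was 73.9%, 69.6% and 69.7% with NGPF2, against 74.6%, 64.6% and 67.1% with vehicle. The highest shares were thus those of replicate 1. The size of these shares depends on the annotated exon lengths, 1570 bases for Ldhb and 3310 for Ldha, and the normalized counts lay closer together.

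Lactate crosses membranes through monocarboxylate transporters. Slc16a1 (MCT1) had 1132, 1921 and 1877 normalized counts with NGPF2, against 1222, 1472 and 1645 with vehicle (log2 difference 0.29, SE 0.09, adjusted p = 0.0753). Slc16a3 (MCT4), known in astrocytes and as a HIF target, was scarce, with 30.7, 11.96 and 8.97 normalized counts with NGPF2, against 27.1, 17.0 and 16.7 with vehicle (log2 difference -0.65, SE 0.41, adjusted p = 0.317). Neither passed.

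**Figure D3:**
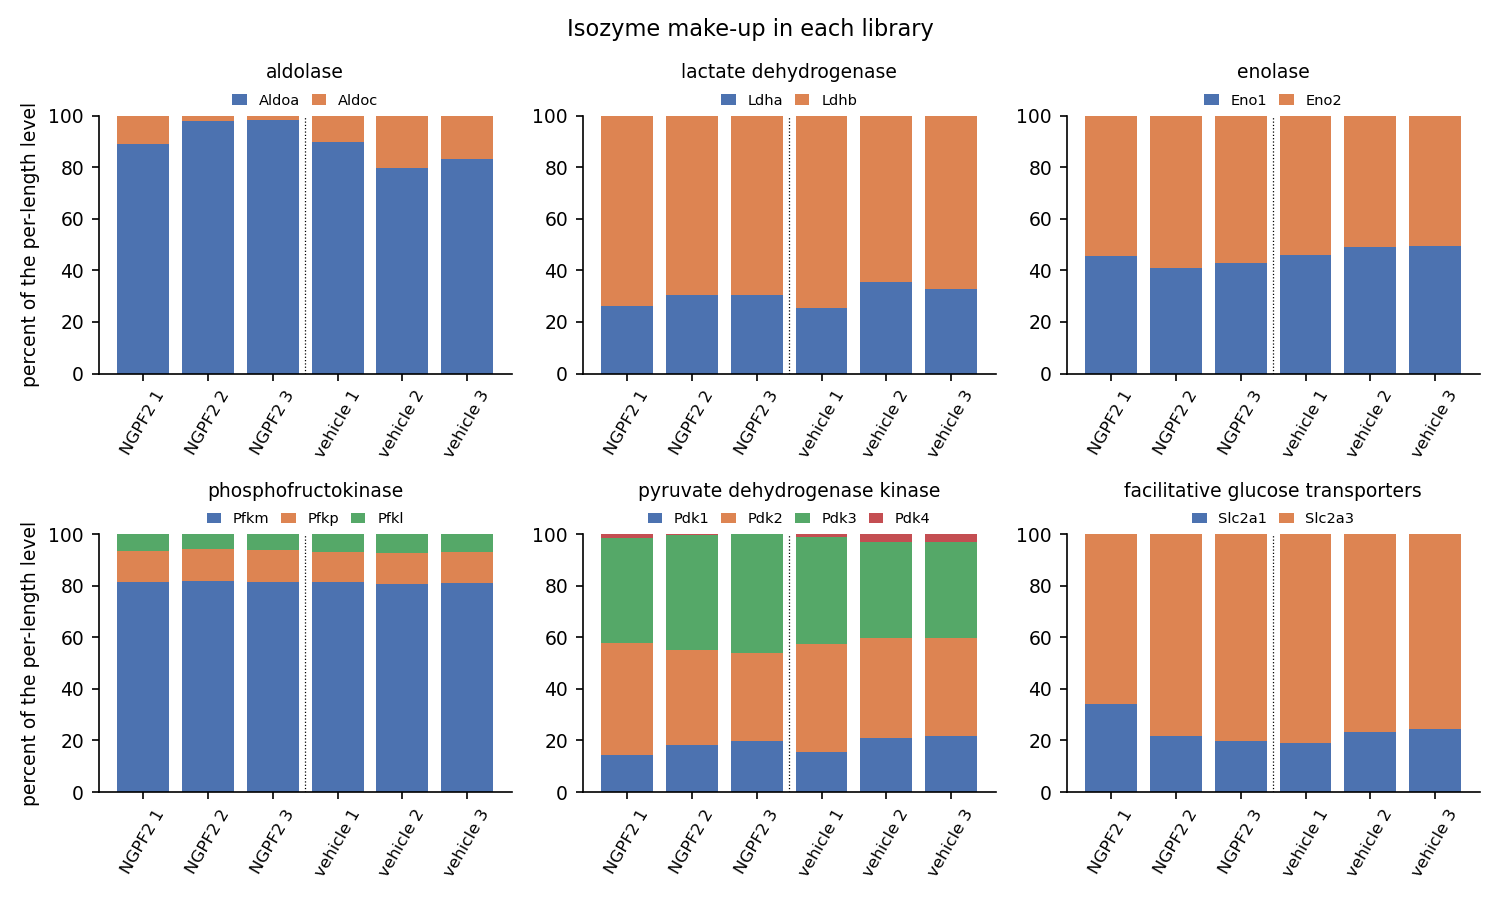
Share of each isozyme in its family's summed normalized count per kilobase of annotated exon, in percent, as stacked bars for each library. Aldoc shrinks to 2.16% and 1.90% in NGPF2 replicates 2 and 3, while Pfkm holds 80.6% to 82.0% of phosphofructokinase in all 6 libraries. The lengths join all annotated exons of a gene, and the size of the shares depends on them.

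Compared over all 3 replicates as log2 ratios of 2 isoforms within a library, none of 10 contrasts passed. Exact two-sided permutation tests over 3 against 3 libraries gave p of 0.1 to 0.8, where 0.1 is the smallest p the design allows, so that it cannot reach 0.05, and all Benjamini-Hochberg values over the 10 contrasts were at least 0.5. These tests did not use the pairs. An exact sign-flip test over the 3 pairs gave p of at least 0.25, the smallest that 3 pairs allow. It gave 0.25 for Eno2 to Eno1 and Pfkm to Pfkl, and 0.5 for Aldoa to Aldoc. The exact p-values below are those of the unpaired test. The log2 ratio of Eno2 to Eno1 averaged 0.21 ± 0.13 in NGPF2 cultures and -0.08 ± 0.11 in vehicle cultures (SD over 3 libraries each, exact p = 0.1), and was higher with NGPF2 in 3 of 3 pairs, by 0.03, 0.49 and 0.37. The ratio of Pfkm to Pfkl averaged 2.70 ± 0.10 with NGPF2 and 2.505 ± 0.08 with vehicle (exact p = 0.1). The ratio of Aldoa to Aldoc averaged 4.57 ± 1.50 with NGPF2 and 2.29 ± 0.58 with vehicle (exact p = 0.2). Its pairs differed by -0.09, 3.53 and 3.40, so that the whole difference lay in pairs 2 and 3. The ratio of Hk1 to Hk2 was higher with NGPF2 in 3 of 3 pairs, by 0.31, 1.57 and 1.98 (exact p = 0.3). The ratio of Slc2a3 to Slc2a1 differed by -1.15, 0.13 and 0.37 in the 3 pairs (exact p = 0.8), and that of Ldhb to Ldha by -0.06, 0.33 and 0.17 (exact p = 0.6). The other 4 mean differences were 0.21 for Pfkp to Pfkl (exact p = 0.2), 0.44 for Pfkfb2 to Pfkfb3 (exact p = 0.3), -0.53 for Slc16a3 to Slc16a1 (exact p = 0.6) and 0.71 for Slc16a7, the neuronal lactate transporter, to Slc16a1 (exact p = 0.7).

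Pyruvate dehydrogenase kinases phosphorylate and switch off the complex that feeds pyruvate into the citric acid cycle. Of 4 members 2 fell in replicates 2 and 3 and none rose, against 11.3% lower and 9.77% higher among all genes tested. Pdk1, a HIF target, had 1197, 1249 and 1215 normalized counts with NGPF2, against 1303, 1573 and 1572 with vehicle, so that all NGPF2 libraries were below all vehicle libraries (log2 difference -0.35, SE 0.07, adjusted p = 0.0319). Pdk4, a kinase raised by fasting and fatty acids in other tissues, had 56.9, 15.5 and 5.38 normalized counts with NGPF2, against 44.5, 107 and 104 with vehicle (log2 difference -3.37, SE 0.51, adjusted p = 0.0137). The value of NGPF2 replicate 3 stands for 3 counts. Pdk2 and Pdk3, the 2 most abundant per kilobase, did not pass, at -0.30 and 0.10. That ranking depends on annotated exon lengths of 3163 and 2561 bases, against 7779 for Pdk1. In normalized counts, Pdk1 was the highest of the 4 in replicates 2 and 3 of both groups. Pdk2 ran from 860 to 1468 normalized counts with NGPF2, against 1101 to 1415 with vehicle, and Pdk3 from 931 to 1117 with NGPF2, against 879 to 1144 with vehicle. Pdk4 held 0.507% and 0.193% of the kinases' level per kilobase in NGPF2 replicates 2 and 3, against 3.15% and 3.20% in vehicle replicates 2 and 3.

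The alpha subunit of HIF-1 is encoded by Hif1a, and Egln1 and Egln3 encode the prolyl hydroxylases that mark the protein for degradation. HIF-1 is known to be controlled mainly through the stability of this protein, which RNA does not measure. None of the 3 genes passed in replicates 2 and 3, where 21.1% of all genes tested did. Hif1a ran from 2474 to 3369 normalized counts with NGPF2, against 2711 to 3322 with vehicle. Egln1 ran from 1690 to 2225 with NGPF2, against 1695 to 2043 with vehicle, and Egln3 from 131 to 172 with NGPF2, against 128 to 176 with vehicle. The groups overlapped in each case, and the log2 differences in replicates 2 and 3 were -0.06, 0.12 and -0.15 (SE 0.10, 0.07 and 0.19).

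The 6 hypoxia targets did not move together. In replicates 2 and 3, 1 rose, 2 fell and 3 did not pass, against 9.77% higher and 11.3% lower among all genes tested. Vegfa, the blood vessel growth factor, had 700, 897 and 975 normalized counts with NGPF2, against 725, 1383 and 1485 with vehicle. It fell 1.53-fold in replicates 2 and 3 (log2 difference -0.62, SE 0.09, adjusted p = 0.0126), and both libraries of replicate 1 were below all the others. Ndrg1, a stress-responsive gene also known in myelinating cells (chr15:66929318-66969640, minus strand), had 1407, 108 and 108 normalized counts with NGPF2, against 1305, 408 and 460 with vehicle. The 2 libraries of replicate 1 were the highest and NGPF2 replicates 2 and 3 the lowest (log2 difference -2.00, SE 0.15, adjusted p = 0.00259), and the change differed from that in replicate 1 by -2.11 (SE 0.21, adjusted p = 0.0215). Higd1a, a mitochondrial protein induced by hypoxia, had 1201, 2670 and 2803 normalized counts with NGPF2, against 1101, 2220 and 2124 with vehicle, and rose in replicates 2 and 3 (log2 difference 0.33, SE 0.07, adjusted p = 0.0339). Bnip3, a mitophagy receptor, had 2104, 4151 and 3898 with NGPF2, against 2307, 4080 and 3668 with vehicle, and both libraries of replicate 1 were again the lowest. The peptide hormone gene Adm ran from 19.7 to 52.5 with NGPF2, against 27.7 to 71.6 with vehicle, and Ankrd37 from 61.4 to 84.4 with NGPF2, against 86.4 to 94.2 with vehicle. Ankrd37 was lower in 3 of 3 pairs, at -0.29 in replicates 2 and 3 (SE 0.22, adjusted p = 0.384), although its sign turned under quantile scaling. By the annotation, Ankrd37 overlaps Ufsp2 and Lrp2bp, Pfkp overlaps Pitrm1 by 748 bases, Pfkm overlaps Senp1 and a further RNA by 359, and Gpi1 and Pkm overlap other annotated RNAs by 741 and 767. Slc2a1, Hk1, Pfkfb2, Aldoa, Tpi1, Gapdh, Hif1a, Bnip3, Ndrg1 and Higd1a also overlap other annotated genes. No source used here says whether counting used strand, which leaves these counts uncertain.

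Whether the change with NGPF2 differed between replicates 2 and 3 and replicate 1 was tested for all 36 genes, and 4 passed in limma, against 2.49% of all genes tested. The term was positive for Slc2a3 and Ldhb, against 0.721% of all genes, and negative for Aldoc and Ndrg1, against 1.77%. Replicate 1 has 1 library per treatment and is assumed to vary like the others. In the absence of vehicle replicate 2 or of vehicle replicate 3, 0 genes passed this test in limma, and 2004 and 1994 genes had an unadjusted p under 0.05. This test, the test in replicates 2 and 3 and the comparison of vehicle cultures that follows share vehicle libraries and are not independent.

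Vehicle replicates 2 and 3 were also set against vehicle replicate 1, a single library that the fit assumes to vary like the others, so that the p-values rest on that assumption. In limma 7 members were higher and 1 was lower, against 10.5% and 9.42% of all genes tested and 19.9% in both directions. Aldoc was higher by 1.24 (SE 0.14, adjusted p = 0.00741). Vegfa was higher by 0.98 (SE 0.12, adjusted p = 0.0077), Higd1a by 0.98 (SE 0.09, adjusted p = 0.00473) and Bnip3 by 0.75 (SE 0.10, adjusted p = 0.0116). The glycolytic genes Pgk1, Ldha and Eno1 were higher by 0.47, 0.43 and 0.33. Ndrg1 was the gene that was lower, at -1.59 (SE 0.15, adjusted p = 0.00457). No gene (0) passed in limma without vehicle replicate 3 and 1 gene without vehicle replicate 2, with 3845 and 3805 at an unadjusted p under 0.05. The culture of vehicle replicate 1 and its library naming cannot be told apart. Astrocyte markers were higher in vehicle replicates 2 and 3 in 9 of 13 cases, and neuron markers in 6 of 12 cases with 4 lower. Their part in these differences was not tested.

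**Figure D4:**
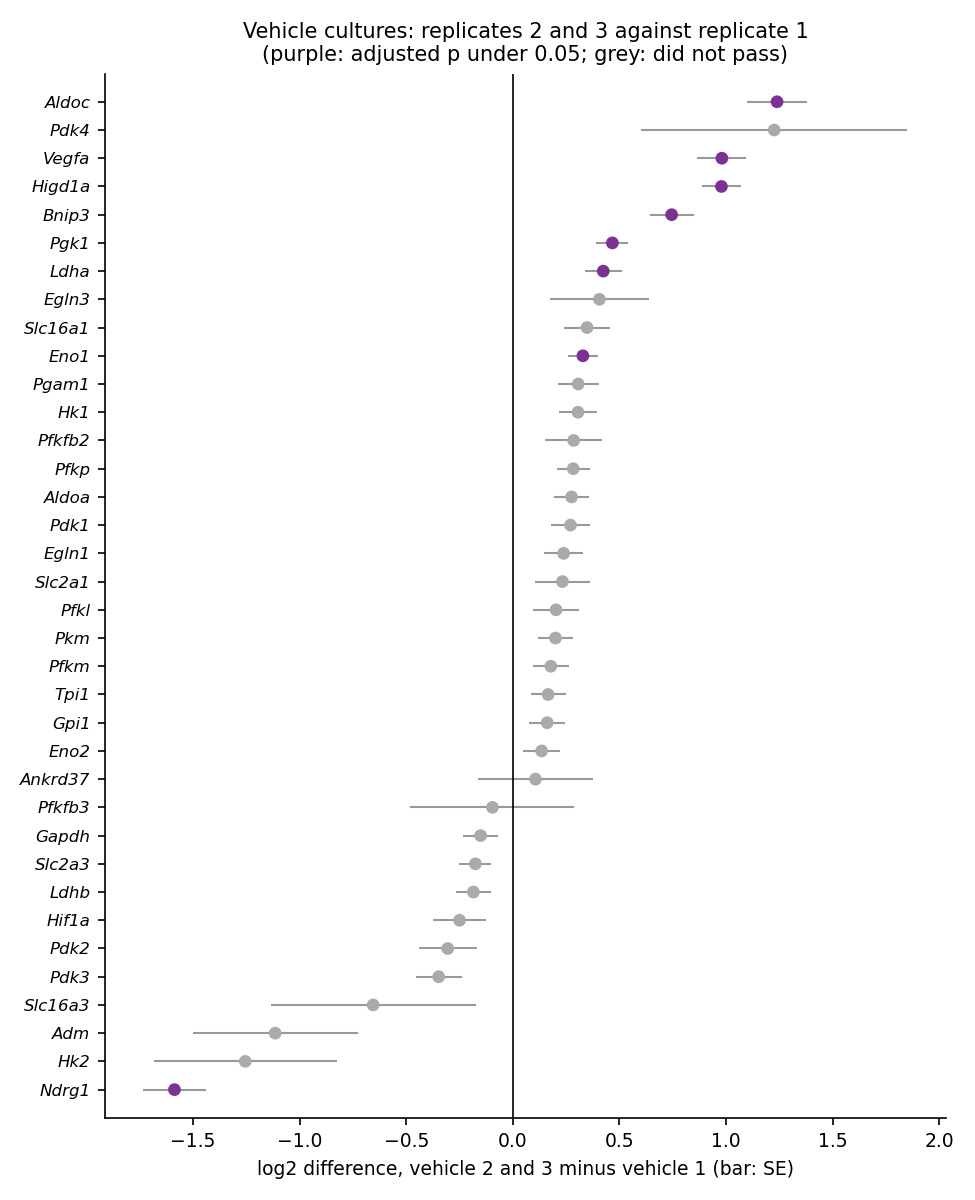
Log2 difference of each gene between vehicle replicates 2 and 3 and vehicle replicate 1, with the standard error of the fit as a bar, ordered by size. Purple points passed at an adjusted p under 0.05, and the range runs from Ndrg1 at -1.59 to Aldoc at 1.24.

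Genes next to these pathways were counted from 7 lists of 110 names, of which 107 were in the table and 100 could be tested. Of these 13 rose and 19 fell in replicates 2 and 3, and the median was -0.08, against 9.77% higher and 11.3% lower among all genes tested. Over the 3 pairs 0 of the 100 passed, as did 0 of the cell type markers. The pyruvate dehydrogenase complex, which the kinases above act on, had 5 of 8 genes higher and none lower, with a median of 0.36. Most of the 8 had a mean of at least 1000, and among all such genes 19.6% were higher and 8.39% lower. Its Pdhb had 5252, 7338 and 7829 normalized counts with NGPF2, against 5535, 5300 and 5422 with vehicle (log2 difference 0.50, SE 0.07, adjusted p = 0.00991), and Pdha1, the subunit that the kinases phosphorylate, had 10982, 11929 and 12156 with NGPF2, against 11102, 9424 and 9048 with vehicle (log2 difference 0.38, SE 0.06, adjusted p = 0.0157). Dlat and Pdhx rose too, by 0.34 and 0.40. Pdp2, a phosphatase of the complex, rose by 0.49 and passed narrowly (SE 0.12, adjusted p = 0.0499, limma). The pentose phosphate pathway had 2 of 7 genes higher, Taldo1 at 0.44 and Pgd at 0.31, while Tkt and G6pdx did not pass.

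Glycogen metabolism had 6 of 12 genes lower and none higher, with a median of -0.48. Among all genes tested, 11.3% were lower and 9.77% higher. Ppp1r3c, which targets protein phosphatase to glycogen, had 1091, 191 and 199 normalized counts with NGPF2, against 936, 1415 and 1326 with vehicle (log2 difference -2.80, SE 0.10, adjusted p = 0.000757). Phka1, a subunit of phosphorylase kinase, had 532, 208 and 190 normalized counts with NGPF2, against 535, 808 and 759 with vehicle (log2 difference -1.97, SE 0.12, adjusted p = 0.00178). Both were lowest in NGPF2 replicates 2 and 3 and nearly level within replicate 1. Phkg1, another subunit of that kinase, also fell, at -1.45. Brain glycogen is known to lie mainly in astrocytes, whose markers fell in the same libraries, and the part of these markers was not tested.

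Of 12 regulators of HIF 3 fell and none rose. These are 25% of the 12, against 21.1% of all genes tested (9.77% higher and 11.3% lower). Epas1, which encodes HIF-2 alpha and is known from endothelium and astrocytes, had 866, 240 and 167 normalized counts with NGPF2, against 769, 2904 and 2624 with vehicle (log2 difference -3.78, SE 0.19, adjusted p = 0.00132). The dimer partner Arnt2 had 21210, 9646 and 8362 with NGPF2, against 21811, 12033 and 12459 with vehicle (log2 difference -0.45, SE 0.09, adjusted p = 0.0266), and Hif3a also fell, at -1.53. Of 33 other HIF targets 3 rose and 9 fell (36.4%). Hmox1, which encodes haem oxygenase, had 1586, 1268 and 1355 normalized counts with NGPF2, against 1677, 2541 and 2618 with vehicle (log2 difference -0.98, SE 0.08, adjusted p = 0.00287), and the transferrin gene Trf and the gene Narf fell too, at -1.91 and -0.71. Further glycolytic genes had 1 higher and 1 lower of 19 (10.5%), Pgm2l1 at 0.46 and Ldhd at -2.24, with Pgm1 and Pgm2 not passing. Carriers had 2 higher and 1 lower of 12 (25%). The mitochondrial pyruvate carrier Mpc2 was higher at 0.44 and Slc2a6 at 0.51. Slc2a13 was lower at -0.38 and passed narrowly (SE 0.10, adjusted p = 0.0499, limma).

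**Figure D5:**
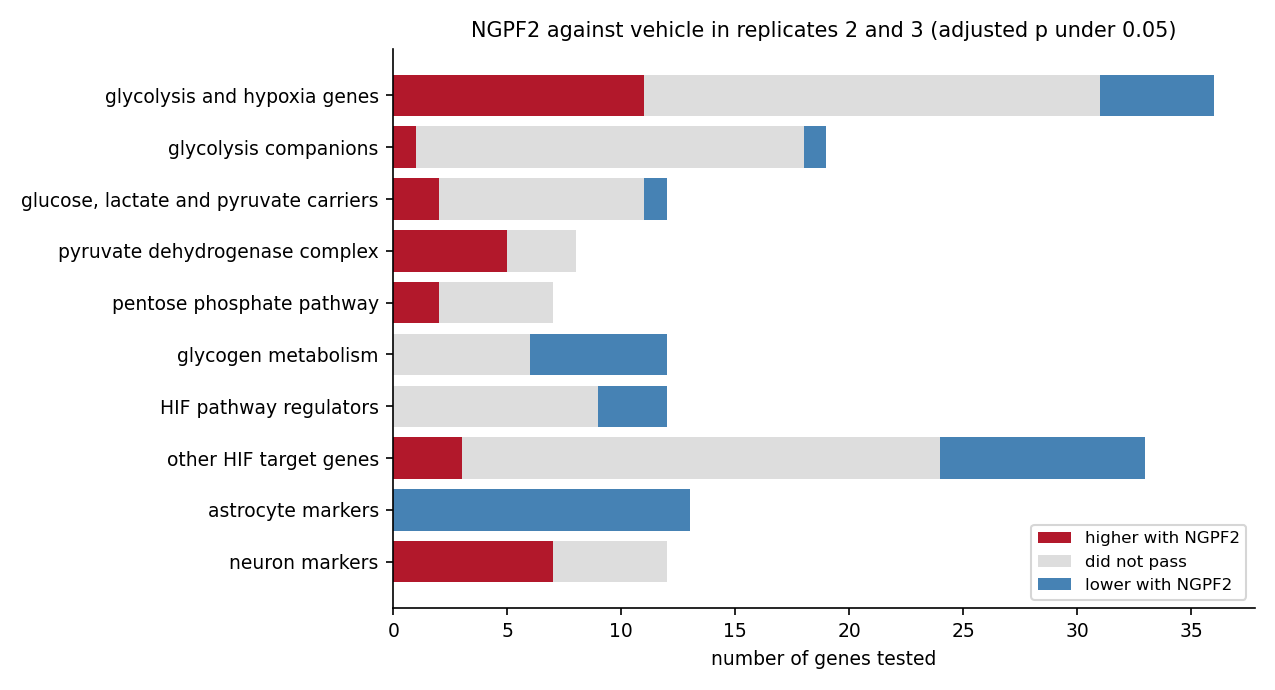
Number of genes higher, not passing and lower with NGPF2 against vehicle in replicates 2 and 3 for each list, as stacked horizontal bars. The astrocyte bar is wholly lower (13 of 13), glycogen metabolism has 6 of 12 lower, and the pyruvate dehydrogenase complex has 5 of 8 higher. Over all genes tested, 9.77% were higher and 11.3% lower.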

How the data were processed

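RNA from 6 cultures was selected for poly(A) and sequenced. Per the submitters' processing notes, the mm10 build, DESeq 1.22.1, Cuffnorm, STAR 2.5 and FastQC were used, in roles the notes do not state. No source used here gives the annotation, counting tool or strand setting. The table is named FPKM, but what the authors deposited is log2(normalized count + 1). Once inverted, 100% of a library's values were whole counts times a constant (to within 0.01 of a count), and that constant is the inverse of the library's median-of-ratios size factor. The plan had assumed FPKM, and tests were run on the log2 values instead.

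Columns of replicates 2 and 3 carry the library names of the titles. Replicate 1 of each group was assigned its column by the initial and by elimination, despite a digit 3 in the column name. Replicates 2 and 3 were treated as 1 library batch from the shared stem of their names, which the titles do not state.

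The filter of a mean normalized count of 10 kept 16653 of 31245 genes, and a symbol was found for 31185 identifiers. Linear models were fitted with limma 3.58.1 under R 4.3.3, with a trended empirical Bayes step, 2-sided p-values and Benjamini-Hochberg adjustment over all kept genes at a threshold of 0.05, after a test on simulated data. Over 3 pairs the replicate number was a block, after the series' design text. The main test in replicates 2 and 3 had no block. Same-numbered libraries deviated together from their group means, with r = 0.594, 0.299 and 0.333 across genes, but replicates 2 and 3 crossed gave 0.320 and 0.342, so that the block rests on the design text. Isoform ratios were tested with exact permutations in SciPy 1.17.1, without the pairing, and with exact sign-flips over the 3 pairs. Exon lengths, which join all annotated exons of a gene, and positions come from GENCODE on mm10, promoters from RefSeq on GRCm38.p6. Replicates of a group differed beyond sampling noise. The p-values measure the spread between these cultures only, and intervals of counting were not used.

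The members, the lists and the split by library name were chosen with earlier results of these data known. Values per library are given for members that passed a test or belong to an isoform contrast, and ranges for the others. From each list of neighbouring genes up to 4 with the smallest p in replicates 2 and 3 are named (1 of them is not reported here), and further called genes were named after their values were seen. Alternatives were a pseudocount of 10, no filter, a mean of at least 50, quantile scaling, scaling to library totals, no trend, limma-voom, the block or its absence, and each library or replicate left out.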

Additional observations from a re-analysis of the deposited data

Results flagged for a closer look

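For 8 genes the change with NGPF2 in replicates 2 and 3 differed from that in replicate 1 by a test of the difference itself (limma, term for the change in replicates 2 and 3 minus the change in replicate 1, adjusted over all genes tested). They were 4 of the 36 members and 4 of the 100 neighbouring genes tested (4%), against 2.49% of all genes tested. The share of the neighbouring genes was thus near that of all genes. Slc2a3 had a term of 1.65 (adjusted p = 0.0089), with a difference of 0.37 in replicates 2 and 3 and of -1.28 in replicate 1. Ldhb had a term of 0.76 (adjusted p = 0.048). The other members were Aldoc at -3.14 (adjusted p = 0.0089) and Ndrg1 at -2.11 (adjusted p = 0.0215). Among neighbouring genes the terms were -3.03 for Ppp1r3c (adjusted p = 0.00751), -1.96 for Phka1 (adjusted p = 0.0215), -3.95 for Epas1 (adjusted p = 0.0161) and -0.90 for Hmox1 (adjusted p = 0.0464). Apart from Slc2a3, these genes differed by at most 0.22 in replicate 1. Each group has 1 library in replicate 1, and without vehicle replicate 2 or vehicle replicate 3 no term of any gene passed.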

How the results depend on the processing

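Over the 3 pairs 1 gene passed with a pseudocount of 10 and 1 without the replicate block, and 0 to 3275 passed with a replicate left out, with 0 to 6 members higher and 0 to 5 lower. Slc2a3 then changed sign, to 0.37 (adjusted p = 0.0274) without replicate 1, and was -0.47 without replicate 2. In replicates 2 and 3, 1074 genes passed with no filter and 1535 without the trend. Members higher numbered 0 with no filter, 3 with quantile scaling, 4 with library totals, 1 without the trend and 6 with the replicate block, and members lower numbered 3 with no filter and 2 without the trend. Among the members and the neighbouring genes of smallest p per list, 14 calls were lost with quantile scaling and 12 with library totals. Another 1 and 4 genes passed only under these scalings. Leaving out a library gave 0 to 3206 genes, with 0 to 11 members higher and 0 to 4 lower. With the replicate block 3275 genes passed there, and the deviations of replicates 2 and 3 correlated at r = -0.01 when taken alone.

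For the term between replicates 2 and 3 and replicate 1, 4684 genes passed with no filter, 733 at a mean of at least 50, 22 without the trend and 1368 with voom. Without the trend 0 members were higher and 0 lower, and with the replicate block 1 was higher. Leaving out a library gave 0 to 412 genes, with 0 to 2 members higher and 0 to 3 lower. Between vehicle libraries 1232 genes passed without the trend and 4999 with voom. Members higher numbered 3 without the trend and 12 with voom, and members lower 3 with quantile scaling and 4 with voom. Leaving out a library gave 0 to 3898 genes, with 0 to 10 members higher and 0 to 1 lower. The cause of these differences was not tested. Quantile scaling left 1651 genes higher and 1747 lower in replicates 2 and 3, and library totals 982 higher and 2664 lower, against 1627 and 1884.

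With a replicate left out, the log2 isoform ratios differed by 0.94 to 1.77 for Hk1 to Hk2, 1.65 to 3.46 for Aldoa to Aldoc, 0.20 to 0.43 for Eno2 to Eno1, 0.06 to 0.25 for Ldhb to Ldha, -0.51 to 0.25 for Slc2a3 to Slc2a1, 0.13 to 0.25 for Pfkp to Pfkl, 0.10 to 0.25 for Pfkm to Pfkl, -0.045 to 2.17 for Slc16a7 to Slc16a1, -0.94 to -0.29 for Slc16a3 to Slc16a1 and 0.22 to 0.77 for Pfkfb2 to Pfkfb3.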

Other observations

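Slc16a7, which encodes the neuronal lactate transporter MCT2, varied about 5-fold between libraries without following treatment or replicate number. It had 2203, 568 and 2627 normalized counts in NGPF2 replicates 1, 2 and 3, against 542, 2030 and 495 in vehicle replicates 1, 2 and 3. The erythropoietin gene Epo, a classical HIF target, was listed at 0 in 5 libraries and had 406 normalized counts in vehicle replicate 3. The carbonic anhydrase gene Car12 and the hormone gene Stc1, also HIF targets, were among the 3 that rose in replicates 2 and 3, and they were chosen here after their values were seen. Car12 had 101, 340 and 273 normalized counts with NGPF2, against 83.2, 128 and 56.1 with vehicle, and Stc1 had 221, 595 and 791 with NGPF2, against 202, 360 and 363 with vehicle.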
